A study of Mus musculus with 106 samples.

Results

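The Foxa2 sites common to all 5 lists are 3126 of the 4348 peaks that the authors called for the transcription factor Foxa2 in WT mouse liver after vehicle. They were chosen by presence in 4 further lists: each one shared at least 1 base with a Foxa2 peak from liver given GW3965, T09 or GW4064 and from liver of the vehicle arm of the GW4064 experiment. The rule used the position of the peaks in these 5 lists, so those overlaps are given as a description, without a test. The 1222 remaining peaks of the vehicle list missed at least 1 of the lists and are called other vehicle peaks. A further 38954 regions, called ligand-only regions, stood in at least 1 ligand list and met no peak of either vehicle list. Of these, 30274 were in 1 ligand list, 4884 in 2 and 3796 in all 3.

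Foxa2 is a forkhead protein that binds DNA through a winged-helix domain and is known as a pioneer factor, able to reach its motif on DNA wrapped around nucleosomes. In liver it works with HNF1, HNF4 and C/EBP factors at genes of plasma proteins and of lipid, bile acid and amino acid metabolism. FXR is the nuclear receptor for bile acids and LXR the one for oxysterols. Both bind DNA as partners of RXR, and the study set Foxa2 binding beside their synthetic ligands.

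The series held 106 samples in 45 groups. Foxa2 ChIP-seq, which recovers DNA bound by the factor with a rabbit antiserum, was made from frozen livers of WT mice aged 8 to 12 weeks. The 5 groups were GW3965 (an LXR agonist), T09 (an LXR agonist), the vehicle listed with these, GW4064 (an FXR agonist) and its own vehicle, all taken 4 h after oral gavage. Per the labels, each of the first 3 lists stands for 3 replicates in a single raw file, and each group of the GW4064 experiment is 1 sample. ATAC-seq, which cuts open chromatin in nuclei, and FXR ChIP-seq used WT and Foxa2-KO livers of the same ages, also at 4 h. The ATAC lists used were GW3965, T09 and GW4064 over vehicle in WT and GW4064 over vehicle in Foxa2-KO. The FXR lists were GW4064 and its vehicle in both genotypes. The labels give the mutant in full, as Foxa2loxP/loxP;Alfp.Cre, only for PPAR, so Foxa2 is lost where the Alfp.Cre transgene acts and may be kept in other cells of the organ. LXR and PPAR lists came from C57BL/6 mice of 3 months, WT and Foxa2-KO. The LXR groups had vehicle, GW or T09, and the PPAR groups vehicle, GW3965, T09 or GW4064. With 1 list per group there was no spread between animals to compare with, and the lists hold no read counts, so the depth is unknown. Percentages therefore carry exact (Clopper-Pearson) 95% intervals that cover counting error alone, and no test was made.

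The letters at these sites are shown first for promoters, because sequence was at hand for windows from 250 bases before to 50 bases after the gene starts in RefSeq (GRCm38.p6, the assembly of the mm10 coordinates). Of the 3008 common sites on chromosomes with such windows 171 met one (5.68%). The lines below give, in the direction of the gene, the bases upstream of the start that lie inside the common site. Capitals mark the forkhead letters TGTTTAC or TGTTTGC, or their reverse complements GTAAACA and GCAAACA. Klkb1 (plasma prekallikrein) and Ahsg (fetuin-A) are members of the gene lists used further on. Apoa2 (an apolipoprotein of HDL), Prlr (the prolactin receptor), Selenop (the selenium carrier of plasma) and Rbp4 (the retinol carrier of plasma) were chosen after the matches were seen.
Apoa2, chr1:171224855-171225053, plus strand: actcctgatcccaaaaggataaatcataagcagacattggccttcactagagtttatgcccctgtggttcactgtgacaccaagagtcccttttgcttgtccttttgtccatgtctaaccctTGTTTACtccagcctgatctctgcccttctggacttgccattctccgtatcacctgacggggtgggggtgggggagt
Klkb1, chr8:45294836-45295085, minus strand: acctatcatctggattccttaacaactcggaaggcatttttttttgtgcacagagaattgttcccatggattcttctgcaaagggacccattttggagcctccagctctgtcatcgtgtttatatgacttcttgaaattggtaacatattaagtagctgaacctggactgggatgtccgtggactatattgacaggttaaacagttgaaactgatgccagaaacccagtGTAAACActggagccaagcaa
Prlr, chr15:10223656-10223882, plus strand: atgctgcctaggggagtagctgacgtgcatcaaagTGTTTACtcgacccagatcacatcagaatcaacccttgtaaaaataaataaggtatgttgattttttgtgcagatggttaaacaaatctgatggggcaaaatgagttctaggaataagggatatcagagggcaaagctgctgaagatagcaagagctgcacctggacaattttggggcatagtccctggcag
Selenop, chr15:3270832-3270976, plus strand: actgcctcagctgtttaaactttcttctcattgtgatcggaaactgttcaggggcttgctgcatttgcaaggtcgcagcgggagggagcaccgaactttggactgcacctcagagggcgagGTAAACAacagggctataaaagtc
Ahsg, chr16:22891765-22892006, plus strand: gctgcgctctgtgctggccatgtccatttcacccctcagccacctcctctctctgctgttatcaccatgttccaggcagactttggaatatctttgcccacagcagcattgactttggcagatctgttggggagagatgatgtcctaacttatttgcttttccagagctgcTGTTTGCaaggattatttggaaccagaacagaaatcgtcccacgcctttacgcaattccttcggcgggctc
Rbp4, chr19:38125322-38125570, minus strand: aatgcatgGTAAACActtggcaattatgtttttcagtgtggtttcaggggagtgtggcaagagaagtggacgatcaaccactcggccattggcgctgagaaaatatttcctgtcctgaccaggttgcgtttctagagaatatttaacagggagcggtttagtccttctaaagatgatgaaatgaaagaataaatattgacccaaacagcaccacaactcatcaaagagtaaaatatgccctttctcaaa
In Apoa2 the middle of the match lay 6 bp from the middle of the site and 74 bp before the start. The match was 9 bp from the middle in Selenop, 52 bp in Prlr and 57 bp in Ahsg. In Rbp4 it was 126 bp and in Klkb1 178 bp from the middle, in a site of 589 bp.

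The next 3 sequences are shown because they belong to Foxa2 itself, to a fibrinogen gene and to the flank of Foxa2, and the first 2 carry no capitals. The first is the common site at the Foxa2 start and the second the common site at the start of Fgb (the fibrinogen beta chain). The third is the common site beyond the 3′ end of Foxa2, at 9030622O22Rik, a transcript that the table does not list as protein-coding, where 1 match stood 141 bp from the middle of the site.
Foxa2, chr2:148046970-148047205, minus strand: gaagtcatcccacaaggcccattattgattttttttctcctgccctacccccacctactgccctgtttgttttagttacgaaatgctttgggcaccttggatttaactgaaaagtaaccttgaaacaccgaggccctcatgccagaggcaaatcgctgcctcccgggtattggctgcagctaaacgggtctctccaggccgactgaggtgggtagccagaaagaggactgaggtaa
Fgb, chr3:83049864-83050100, minus strand: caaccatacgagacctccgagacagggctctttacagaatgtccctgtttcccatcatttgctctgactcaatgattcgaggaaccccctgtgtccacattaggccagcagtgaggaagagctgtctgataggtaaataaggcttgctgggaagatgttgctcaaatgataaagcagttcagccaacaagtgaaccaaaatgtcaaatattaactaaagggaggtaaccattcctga
9030622O22Rik, chr2:148040349-148040539, minus strand: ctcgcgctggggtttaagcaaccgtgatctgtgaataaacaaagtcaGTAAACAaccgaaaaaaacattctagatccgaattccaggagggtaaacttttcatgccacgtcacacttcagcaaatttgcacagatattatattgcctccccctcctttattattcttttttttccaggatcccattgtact
In the first 2 the absence of capitals says only that neither heptamer is in these bases. Other spellings of the motif were not searched.

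Forkhead letters were frequent in promoters that held a common site. Of 168 non-overlapping windows at common sites, 72 had a match (42.9%, interval 35.3 to 50.7%), against 31 of 85 windows at other vehicle peaks (36.5%, 26.3 to 47.6%). Of 1396 windows at ligand-only regions, 205 had one (14.7%, 12.9 to 16.7%), and of all 29164 non-overlapping windows 2502 did (8.58%). The intervals of common sites and other vehicle peaks overlap, while both lie above those of ligand-only regions and of all windows. GC content was 53.0% at common sites, 52.7% at other vehicle peaks, 57.0% at ligand-only regions and 53.2% in all windows.

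TGTTTAC accounted for most of these matches. It was in 57 of the 168 windows at common sites (33.9%, 26.8 to 41.6%) and in 3.65% of all windows. TGTTTGC was in 19 windows at common sites (11.3%, 6.95 to 17.1%) and in 5.18% of all windows. A single match was found in 64 windows, 2 in 7 and 3 in 1, the promoter of Trmt13, while 96 windows had none. Of the 84 windows whose sites stood earlier in the vehicle list 41 had a match (48.8%, 37.7 to 60.0%), against 31 of the 84 later ones (36.9%, 26.6 to 48.1%), and these intervals overlap.

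The matches gathered at the middle of the sites. Within 25 bp of a common site's centre there were 34 matches in 6525 bases (5.21 per kb), from 25 to 50 bp 2.40 per kb, from 50 to 100 bp 1.40 per kb, from 100 to 150 bp 0.966 per kb and from 150 to 250 bp 0.439 per kb. All windows together had 0.306 per kb. Other vehicle peaks had 4.42 per kb and ligand-only regions 1.31 per kb within 25 bp. Inside common sites the density was 2.35 per kb (77 matches), and in the bases of the same windows outside the sites it was 0.226 per kb (4 matches).

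**Figure D1:**
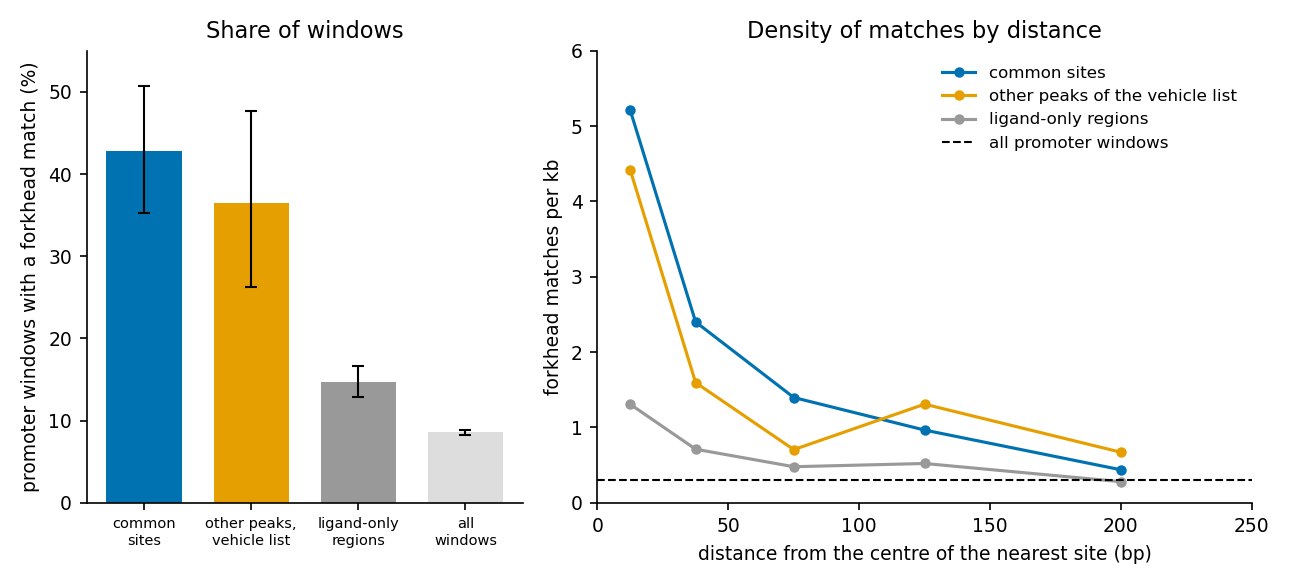
Left, the percent of promoter windows with a forkhead match (TGTTTAC or TGTTTGC, either strand) at common sites, at other peaks of the vehicle list, at ligand-only regions and among all windows, with exact 95% intervals. Right, forkhead matches per kb against distance in bp from the centre of the nearest site, where common sites reach 5.21 per kb within 25 bp and fall to 0.439 per kb beyond 150 bp, against 0.306 per kb in all windows (dashed).

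Letters of other liver factors were looked for on both strands in the same windows. An HNF1 motif was in 6 of 168 windows at common sites (3.57%, 1.32 to 7.61%) and in 0.425% of all windows. The HNF4 letters CAAAGTCC were in 9 (5.36%, 2.48 to 9.93%) and in 1.45% of all windows, and the C/EBP letters TTGCNCAA in 17 (10.1%, 6.01 to 15.7%) and in 3.00%. The nuclear receptor letters AGGTCA were in 32 (19.0%, 13.4 to 25.8%), an interval that holds the 16.4% of all windows. The Sp1 letters GGGCGG were in 61 (36.3%, 29.0 to 44.1%), which holds the 33.8% of all windows. For each of these 5 motifs the intervals of common sites and other vehicle peaks overlapped.

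Common sites stood early in every Foxa2 list. The lists hold only positions and no height or q-value, and what set the authors' order of entries is not given in the sources used here. With each list cut into 10 equal parts, in the first part of the GW3965 list 84.2% of the peaks lay on a common site, in the T09 list 80.8%, in the vehicle list 100%, in the GW4064 list 86.6% and in the list of its vehicle 97.1%. In the last part the shares were 0% for GW3965, 0% for T09, 38.9% for vehicle, 0.265% for GW4064 and 4.52% for its vehicle. Over the whole lists, common sites took up 3115 of 21245 peaks with GW3965 (14.7%), 3116 of 25318 with T09 (12.3%), 3136 of 22666 with GW4064 (13.8%) and 3135 of 7306 with its vehicle (42.9%).

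**Figure D2:**
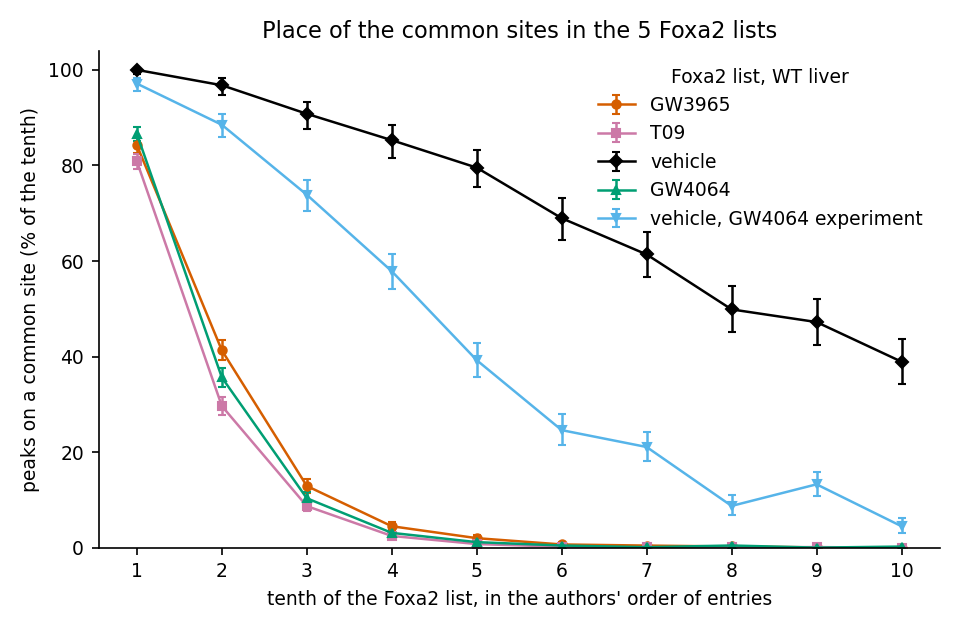
Percent of the peaks in each of 10 equal parts of a Foxa2 list that lie on a common site, against the part in the authors' order of entries, with exact 95% intervals and 1 line per list. The 3 ligand lists lie between 80.8 and 86.6% in the first part and under 1% from the sixth on, and the vehicle list goes down to 38.9% in its last part.

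The vehicle list of the GW4064 experiment set most of the rule. Of the 4348 vehicle peaks, 4294 were met by the GW3965 list, 4224 by the T09 list, 4158 by the GW4064 list and 3180 by the GW4064 vehicle list. Of the 1222 other vehicle peaks, 993 missed a single list, and for 949 of these it was the GW4064 vehicle list. Another 168 missed 2 lists, 37 missed 3 and 24 missed all 4. At the edge of the rule, the common site at chr6:8028870-8029120 shared 19 bases with its GW4064 peak, and the one at chr8:40891957-40892442 shared 40 bases with its GW4064 vehicle peak. Just outside it, the vehicle peak at chr1:155276519-155276712 lay 185 bp from the nearest GW4064 vehicle peak and the one at chr14:70508581-70508837 lay 201 bp away. Few sites were near the edge. The fewest bases shared with any list had a median of 196 and were under 50 in 4 sites, and the gap to the missing list was within 1 kb for 59 of the 993 peaks that missed 1 list.

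Peak centres of common sites lay close together across the lists, which the overlap asked for by the rule favours in advance. Where several peaks of a list overlapped a site, the nearest centre was taken. The median distance from a common site's centre to the centre of the matching peak was 20 bp with GW3965, 22 bp with T09, 14 bp with GW4064 and 15 bp with its vehicle. Within 50 bp were 74.0% of the sites with GW3965, 72.6% with T09, 88.6% with GW4064 and 86.5% with its vehicle. Median widths at common sites were 348 bp with GW3965, 326 bp with T09, 249 bp with vehicle, 250.5 bp with GW4064 and 208 bp with its vehicle. Elsewhere in these lists the median was 263 bp with GW3965, 287 bp with T09, 230 bp with vehicle, 100 bp with GW4064 and 147 bp with its vehicle. In the vehicle list common sites ran from 150 to 15831 bp, with an interquartile range of 219 to 298 bp, and other vehicle peaks from 155 to 1708 bp, with 205 to 295 bp.

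Some common sites lie in regions that every antibody recovered. Lists of Foxa2, FXR, LXR and PPAR shared 102 regions of 389547 bp in all, and 29 common sites (0.928%) and 7 other vehicle peaks (0.573%) fell in them. Of the first 20 common sites 5 did. The first 3 entries of the vehicle list were such sites, with Esp38, Ly6c2 and Cdk8 as nearest protein-coding genes. The site near Esp38, at chr17:39842935-39848903, was entry 1 of all 5 lists and 5967 to 5978 bp wide. Shares for other antibodies are given below with and without these regions.

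The first 10 common sites outside these regions had Lrrc4c (at 2 sites), Gm2244, Setd4, Urb1, Irf2bp2, Lifr, Sc5d, Tpst2 and Fga as nearest protein-coding genes. Those at Setd4, Urb1, Lifr and Tpst2 lay within the gene. The site in Setd4, at chr16:93591441-93591778, was entry 2 with GW3965, 4 with T09, 6 with vehicle, 2 with GW4064 and 5 with its vehicle. A second vehicle peak at chr16:93590953-93591209, beside it, missed the GW4064 vehicle list by 215 bp and is no common site. The site 10915 bp upstream of Sc5d (a desaturase of cholesterol synthesis), at chr9:42275053-42275377, was entry 29 with GW3965, 25 with T09, 12 with vehicle, 10 with GW4064 and 17 with its vehicle. The 2 sites assigned to Lrrc4c lay 1035151 and 1030939 bp from it, at chr2:98666166-98667480 and chr2:98662163-98663059. Their places differed more between lists, with entries 7686 and 10934 in the GW3965 list and 4 and 11 in the vehicle list. An order of entries from lists of such different length shows no change in binding. Being outside the shared regions means only that not all 4 antibodies had a peak there. The site assigned to Gm2244, at chr14:19415574-19419470 and 116178 bp from it, met FXR and LXR peaks of WT. The Lrrc4c site at chr2:98662163-98663059 met FXR peaks of WT, and the one in Tpst2 met LXR peaks of WT. Whether the signal at such sites is particular to Foxa2 was not tested.

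Most common sites lay in or near genes, but few at gene starts. Of the 3126 sites 1654 had their centre in a protein-coding gene (52.9%, 51.1 to 54.7%), 489 lay outside genes but within 10 kb of one (15.6%), and 983 were farther away (31.4%). The intervals of other vehicle peaks overlapped these, with 53.0% (50.2 to 55.9%) in genes and 30.2% farther than 10 kb. Ligand-only regions were in genes less, at 48.6% (48.1 to 49.1%), and farther than 10 kb more, at 38.6%. Within 500 bp of a start in the RefSeq table were 148 of 3008 common sites off chromosome 18 (4.92%, 4.17 to 5.75%), 6.50% of other vehicle peaks (5.16 to 8.07%) and 3.79% of ligand-only regions (3.59 to 3.98%). The median distance to a start was 32783 bp for common sites, 31207 bp for other vehicle peaks and 50511 bp for ligand-only regions. Which exon or intron holds a site was not analysed here.

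Common sites were found on chromosomes 1 to 19 and X, and some stood close together. Chromosome 1 held 243, the X chromosome 22, and the share of vehicle peaks that were common went from 55% on the X (38.5 to 70.7%) to 77.1% on chromosome 1 (72.1 to 81.7%). A neighbour within 10 kb was found for 521 sites (16.7%), in 244 runs, of which 29 had 3 sites and 1 had 6. The run of 6 was at chr9:3019116-3036894, 308508 bp from its nearest protein-coding gene, Alkbh8. Runs of 3 stood in or near Il6ra, Fgb, Ahsg, Ghr and Setd4, among others.

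Of 21887 protein-coding genes 2045 had a common site inside them or at most 10 kb away (9.34%), and 943 had another vehicle peak there (4.31%). Longer genes had them more often: with genes cut into 4 groups by length, 2.91% of the shortest group (median length 2226 bp) and 18.2% of the longest (median 90633 bp). A single site was found at 1615 genes, 2 at 338, 3 at 62, 4 at 25 and more at 5 genes. These 5 were Arhgap26 (a GTPase-activating protein) with 11, Ghr (the growth hormone receptor) with 8, and Fto (an RNA demethylase), Zmiz1 (a transcriptional coactivator) and Tenm3 (a cell adhesion protein) with 5 each. Per 100 kb, Ghr had 2.80 sites, Zmiz1 2.18, Arhgap26 1.38, Fto 1.33 and Tenm3 0.380. All 8 sites of Ghr lay inside the gene, at vehicle entries 441 to 3930. Of these, 1 lay in a region gained with GW3965 in WT, as did 27.4% of all common sites. That site also lay in a region gained with GW4064 in WT (9.50% of all common sites). Another 1 lay in a region gained with T09 (4.64%).

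Gene lists of liver functions and cell types were set against this share of all genes. The median gene length of the 18 lists ran from 6929.5 bp (lymphocyte markers) to 50764 bp (fatty acid synthesis), against 17169 bp over all protein-coding genes, and its part in the counts was not tested. Regulators of hepatocyte genes were themselves near common sites. Of 16 liver transcription factors 10 had one (62.5%, 35.4 to 84.8%), where all protein-coding genes stand at 9.34%. The other 6, Foxa1, Foxa3, Onecut1, Cebpb, Gata6 and Creb3l3, had ligand-only regions, as did 11366 of all 21887 protein-coding genes (51.9%). Foxa2 had 3 sites. The site 2529 bp past its end, at chr2:148040157-148040539, was entry 628 with GW3965, 762 with T09, 1442 with vehicle, 1072 with GW4064 and 1267 with its vehicle. The site at its start, at chr2:148046787-148047205, was entry 1274 with GW3965, 1678 with T09, 1533 with vehicle, 1543 with GW4064 and 3753 with its vehicle. The third, inside the gene at chr2:148045546-148045716, was the narrowest, 150 to 299 bp wide over the lists. Onecut2 and Prox1 (liver homeodomain factors) had 2 sites each.

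Of 25 nuclear receptor genes 11 had a common site (44.0%, 24.4 to 65.1%). Rora (a receptor that drives clock genes) had 4, all inside the gene, with vehicle entries 571, 582, 622 and 914. Nr3c1 (the glucocorticoid receptor), Thrb (a thyroid hormone receptor) and Nr1i2 (the xenobiotic receptor PXR) had 2 each. Nr1h4, which encodes FXR, had 1, at chr10:89470708-89470925, entry 514 with GW3965, 1113 with T09, 2946 with vehicle, 699 with GW4064 and 853 with its vehicle. Nr1h3 and Nr1h2, which encode the LXRs, had none.

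The clotting list had the highest share of the 18 lists. Of 20 clotting and fibrinogen genes 16 had a common site (80.0%, 56.3 to 94.3%), and 4 had another vehicle peak (20%). Fgb had 3, all upstream within 2397 bp of the start, at vehicle entries 397, 411 and 976. Fgg had 2, of which the one at chr3:83020436-83020787 lies between Fgg and Fga and was counted for both. Klkb1 and Plg (plasminogen) had 2 each. The promoter site of Klkb1 printed above, at chr8:45294737-45295325, was 325 bp wide with GW3965, 322 bp with T09, 589 bp with vehicle, 267 bp with GW4064 and 260 bp with its vehicle. Its second site, at chr8:45267300-45267529, was also counted for the neighbouring F11 (clotting factor XI). The 4 genes without a site were F9, F12, Proc and Cpb2.

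Of 28 acute phase and complement genes 12 had a common site (42.9%, 24.5 to 62.8%). Il6ra (the interleukin-6 receptor) had 3, inside the gene, with vehicle entries 150, 750 and 1756. Lifr (the leukemia inhibitory factor receptor) had 2 inside the gene, Itih2 (a hyaluronan-binding plasma protein) 2 inside the gene, and Hp (haptoglobin) 2 at 5850 and 9302 bp. Saa1, Saa2, Orm1 and Orm2 had none. Of 18 hepatocyte identity genes 12 had one (66.7%, 41.0 to 86.7%). Tat (tyrosine aminotransferase) had 3, all upstream at 1793 to 7395 bp, and Ahsg 2, the nearer 133 bp upstream.

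Of 24 genes of bile acid synthesis and transport 12 had a common site (50.0%, 29.1 to 70.9%). Abcc2 (the canalicular pump MRP2) had 3 inside the gene. The first, at chr19:43811423-43811737, was entry 128 with GW3965, 100 with T09, 59 with vehicle, 14 with GW4064 and 119 with its vehicle, and 261 to 316 bp wide. Atp8b1 (a phospholipid flippase) and Abcb4 (the phosphatidylcholine floppase) had 2 each inside the gene. Cyp8b1 (sterol 12-alpha-hydroxylase) had 1 on either side, 8684 bp downstream and 7344 bp upstream. Cyp7a1 (the rate-limiting enzyme of bile acid synthesis), Abcb11 (the bile salt export pump) and 10 others had none.

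Of 28 lipoprotein and cholesterol genes 12 had a common site (42.9%), from 9 sites in all, since neighbours shared them. The site at chr7:19700948-19701371 in Apoe was counted for Apoc1 too, and the one at chr17:84689450-84689715 for both Abcg5 and Abcg8 (the sterol exporter). Of 20 genes of fatty acid synthesis and LXR targets 4 had one (20%, 5.73 to 43.7%), namely Lpin1, Lpcat3, Mlxipl and Abcg1, while 7 had another vehicle peak (35.0%). That list was the only 1 of the 18 in which other vehicle peaks were near more genes than common sites. Lpin1 (a phosphatidate phosphatase) had its site at chr12:16618477-16619088, at entry 57 with GW3965, 91 with T09, 177 with vehicle, 211 with GW4064 and 748 with its vehicle. Of 22 genes of fatty acid oxidation and PPAR targets 7 had one (31.8%, 13.9 to 54.9%), Cpt1a (the carnitine transferase of mitochondrial import) 2, and Acadm, Ehhadh and Slc25a20 1 each.

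Of 22 urea cycle and amino acid genes 13 had a common site (59.1%, 36.4 to 79.3%). Tat led with 3, and Cps1 (the first enzyme of the urea cycle), Cbs (cystathionine beta-synthase) and Asl (argininosuccinate lyase) had 2 each. Of 19 genes of gluconeogenesis and glucose 7 had one (36.8%, 16.3 to 61.6%). Igf1 (insulin-like growth factor 1) and Gys2 (liver glycogen synthase) had 2 each and Foxo1 1, while Pck1 and G6pc had none. Of 24 genes of cytochrome P450 and conjugation 11 had one (45.8%, 25.6 to 67.2%). Cyp2f2 had its site at chr7:27124379-27124654, within the first 72 entries of all 5 lists, and Gsta3 and Ugt1a1 had 2 each. Both sites of Ugt1a1 lay in regions shared by all antibodies. Of 19 clock genes 9 had one (47.4%, 24.4 to 71.1%), with 4 at Rora, 2 at Per2 and 1 each at Hlf and Nfil3.

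Of the 50 markers of other liver cells 5 had a common site (10%, 3.33 to 21.8%), an interval that holds the 9.34% of all protein-coding genes. None of 10 Kupffer cell, 10 stellate cell and 10 lymphocyte markers had one, for each of which the interval reaches 30.8% and also holds that share. Of 10 cholangiocyte markers 1 had one. Of 10 endothelial markers 4 had one (40%, 12.2 to 73.8%): Stab2 (a scavenger receptor of sinusoids), Kdr (a VEGF receptor), Fcgr2b (an Fc receptor) and Oit3. The Stab2 site, at chr10:86845321-86845844, was entry 471 with GW3965, 391 with T09, 516 with vehicle, 400 with GW4064 and 248 with its vehicle. In whole liver the cells that bound Foxa2 there cannot be told apart.

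**Figure D3:**
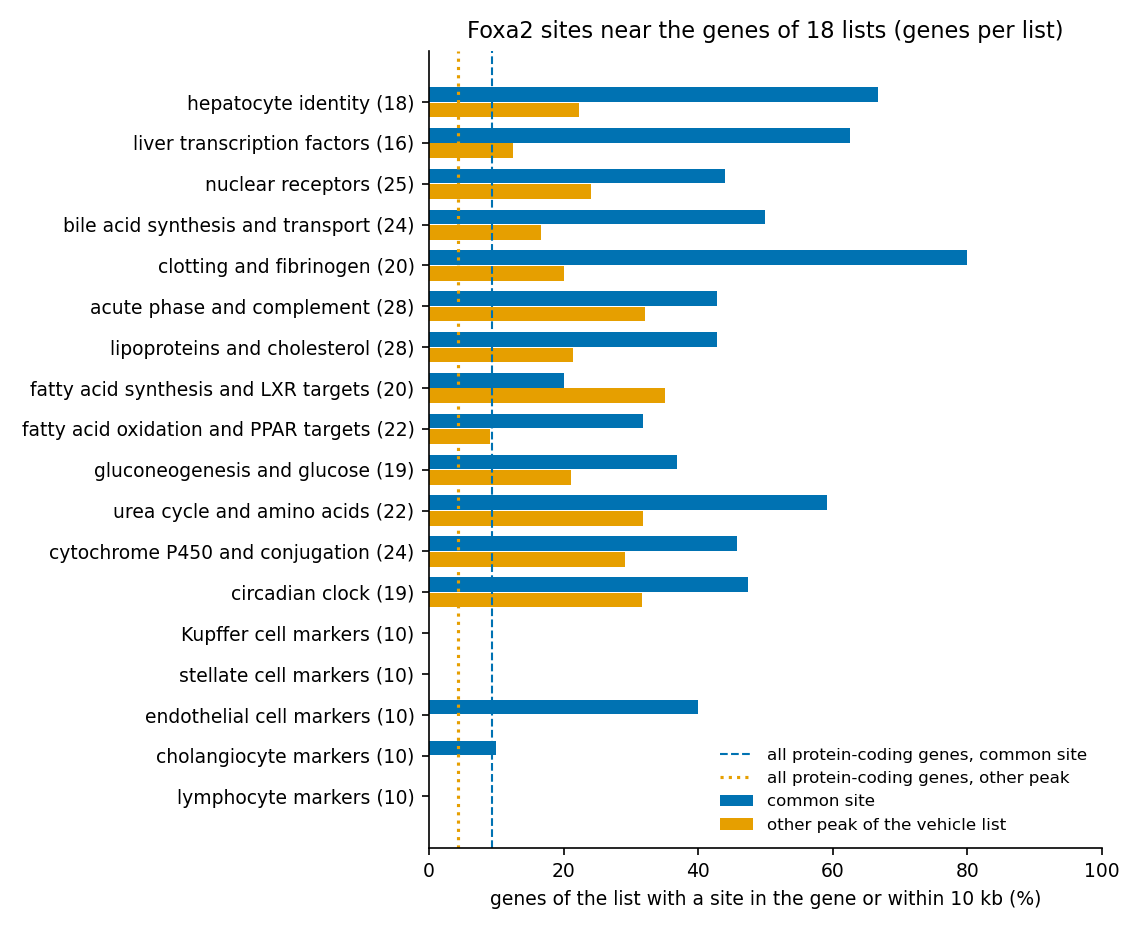
Percent of the genes in each of 18 lists (number of genes in brackets) with a common site (upper bar) or another peak of the vehicle list (lower bar) in the gene or within 10 kb. Lines mark all protein-coding genes, 9.34% for common sites and 4.31% for other vehicle peaks, and the clotting list reaches 80.0% with common sites.

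MicroRNA genes were also near common sites in some cases. Of the 1228 such genes that RefSeq lists, 41 had one within 10 kb (3.34%, 2.41 to 4.50%). Protein-coding genes stood at 9.34%, and the shortest of their 4 length groups at 2.91% (2.48 to 3.39%). How far gene length sets the microRNA share was not tested. Mir21a lay 3346 bp from its site, and Mir25, Mir93 and Mir106b, which form a cluster, lay 5312 to 5726 bp from the site at chr5:138170927-138171334. Mir101a and Mir101b had 1 each, 9201 and 6788 bp away. These genes were named after their values were seen.

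A sizeable share of common sites lay in regions gained with GW3965. The ATAC lists hold regions the authors called with ligand over vehicle in livers of 1 genotype. With GW3965 in WT, 855 common sites lay in such a region (27.4%, 25.8 to 29.0%), as did 338 other vehicle peaks (27.7%, 25.2 to 30.3%) and 4555 ligand-only regions (11.7%, 11.4 to 12.0%). All vehicle-list peaks together stood at 27.4%. The shares of common sites and other vehicle peaks thus lay within each other's intervals, and both above that of ligand-only regions. With the vehicle list cut into 4 equal parts, 30.2% of the common sites of the first part lay in these regions (27.4 to 33.1%) and 26.0% of those of the last (22.1 to 30.1%).

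Regions gained with the other ligands held fewer of them. The lists were of unlike extent, 62838 regions over 20244 kb with GW3965 in WT and 60868 regions over 14689 kb with T09. The ATAC groups had 2 samples each for GW3965 and T09 and 3 for GW4064. How far this sets the shares was not tested. With T09 in WT, 145 common sites lay in a gained region (4.64%, 3.93 to 5.44%), as did 56 other vehicle peaks (4.58%, 3.48 to 5.91%), against 4.62% of all vehicle-list peaks. Ligand-only regions stood at 3.85% (3.66 to 4.04%), an interval that overlaps that of common sites. With GW4064 in Foxa2-KO liver 71 common sites did (2.27%, 1.78 to 2.86%), with GW4064 in WT 297 (9.50%, 8.50 to 10.6%). Other vehicle peaks had 3.03% (2.14 to 4.15%) in Foxa2-KO and 9.41% (7.83 to 11.2%) in WT, where all vehicle-list peaks stood at 2.48% in Foxa2-KO and 9.48% in WT. Ligand-only regions had 2.65% (2.49 to 2.82%) in Foxa2-KO, which overlaps the interval of common sites, and 4.94% (4.72 to 5.16%) in WT, which lies below it. The Foxa2-KO list held more regions over less sequence, 82561 over 19364 kb, against 60528 over 20753 kb in WT. How far the make-up of the lists sets the shares was not tested. The WT interval lies above the Foxa2-KO one for common sites, other vehicle peaks and ligand-only regions alike. Of the 71 and 297 sites 18 were the same, and whether the genotypes differ beyond the spread between animals was not tested.

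Some common sites lay in regions gained with more than 1 ligand. Of the 3126, 708 were in regions gained with GW3965 only, 88 with T09 only and 179 with GW4064 only, counting WT liver. Another 108 were in both GW3965 and GW4064 regions, 47 in GW3965 and T09 regions and 18 in T09 and GW4064 regions, each count including the 8 that were in all 3. The 1994 remaining (63.8%) were in none. Regions of both GW3965 and GW4064 held 3.45% of common sites (2.84 to 4.16%) and 3.60% of other vehicle peaks (2.63 to 4.80%), and those of all 3 ligands 0.256% of common sites and 0.245% of other vehicle peaks. The 8 sites had Pla2g6 (2 sites), Oma1, Inmt, Neu2, Hdhd5, Alas1 and Upp2 as nearest genes, at 14602 bp for Oma1, 48625 bp for Hdhd5 and within 10 kb for the others. The site in Upp2 (a uridine phosphorylase), at chr2:58794534-58794772, lay in entry 2 of the T09 list with a fold of 2.05 and in entry 157 of the GW3965 list with a fold of 2.41. The site in Alas1 (the rate-limiting enzyme of heme synthesis), at chr9:106236059-106236291, lay in entry 25 with T09 (fold 1.34) and in entry 17 with GW4064. These folds, ligand over vehicle, are the authors' own.

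Gained regions that held common sites were wider and of lower fold than their whole lists. A region counts by 1 shared base, which by itself favours wide ones. With GW3965 they had a median width of 1138 bp and a median fold of 1.36, against 126 bp and 3.38 over the whole list. With T09 they had 1590 bp and 1.31, against 113 bp and 3.98. With GW4064 in Foxa2-KO they had 1777 bp and 1.26, against 132 bp and 3.31. With GW4064 in WT, whose list was used for positions alone, they had 1760 bp, against 150 bp. Regions that held other vehicle peaks had much the same values, 1053 bp and 1.40 with GW3965 and 1784 bp and 1.31 with T09. Those that held ligand-only regions had 869 bp and 1.47 with GW3965 and 819 bp and 1.56 with T09.

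Among the gene lists, 8 of the 12 lipoprotein genes with a common site had one in a GW3965 region, as did 7 of the 16 clotting genes. Since neighbours share sites, this rests on 5 of 9 sites for lipoprotein genes and 6 of 21 for clotting genes, where 27.4% of all common sites lay in such regions. The site near Apoc1, Apoc2 and Apoc4, at chr7:19685437-19685636, lay in entry 44 of the GW3965 list with a fold of 1.84. The site in Ehhadh (a peroxisomal oxidation enzyme), at chr16:21782918-21783163, had the highest fold of the list members with GW3965, 3.04. T09 regions held sites of 4 of the 7 glucose genes, Foxo1, Sds, Got1 and Igf1, and both sites of Igf1 had one, with folds of 1.53 and 1.95. That is 5 of the 11 sites of this list, against 4.64% of all common sites. GW4064 regions of WT held sites of 5 of the 11 cytochrome P450 and conjugation genes, Cyp2b10, Cyp3a11, Ugt1a1, Gstm1 and Aox3, at 5 of 13 sites, against 9.50% of all common sites. These lists were picked from 18 for their counts, and nothing particular to them was tested. In Foxa2-KO the regions with GW4064 held sites of Socs3 and Apcs, among others.

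FXR peaks met a small share of common sites. In Foxa2-KO liver with GW4064 19 common sites held one (0.608%, 0.366 to 0.948%), in WT liver with GW4064 161 did (5.15%, 4.40 to 5.98%). Other vehicle peaks had 0.491% (0.180 to 1.07%) in Foxa2-KO and 3.03% (2.14 to 4.15%) in WT, and all vehicle-list peaks of WT stood at 4.55%. With vehicle, 11 common sites held one in Foxa2-KO (0.352%, 0.176 to 0.629%) and 83 in WT (2.66%, 2.12 to 3.28%). The shares of other vehicle peaks with these FXR lists were 0.491% (0.180 to 1.07%) and 1.64% (1.00 to 2.52%). Each region shared by all antibodies holds an FXR peak of some list by definition, so leaving these regions out favours lower shares. Without them 0 common sites held an FXR peak with vehicle in Foxa2-KO and 59 in WT (1.91%). Of other vehicle peaks 1 (0.0823%) and 16 (1.32%) then did. The FXR lists differed in length in the same direction: with GW4064 the Foxa2-KO list held 3901 peaks and the WT list 22705, and with vehicle 4284 and 7883. The WT lists hold positions alone, so whether both genotypes were called at the same threshold is not given in the sources used here. How far the length of the lists accounts for the shares was not tested.

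Without the regions shared by all antibodies 1 common site held an FXR peak in Foxa2-KO with GW4064 (0.0323%, up to 0.180%) and 135 in WT with GW4064 (4.36%, 3.67 to 5.14%). Other vehicle peaks then had 2 in Foxa2-KO (0.165%) and 31 in WT (2.55%, 1.74 to 3.60%). Ligand-only regions had 0.147% in Foxa2-KO and 1.12% in WT (1.02 to 1.23%). In WT the interval of common sites lies above that of other vehicle peaks, by a narrow gap between 3.60 and 3.67%. The 135 sites still include some that LXR peaks also met, such as the one assigned to Gm2244. How far such sites set the gap was not tested. The 1 common site in Foxa2-KO was at chr2:98663624-98664100 and also met LXR peaks of both genotypes. Within 4 equal parts of the vehicle list, shared regions included, the 2 intervals overlapped in each: 7.03% of common sites (5.56 to 8.74%) and 5.88% of other vehicle peaks (0.720 to 19.7%) in the first, 4.33% (2.70 to 6.54%) and 2.99% (1.78 to 4.68%) in the last.

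The 135 sites were centred near the FXR peaks, at a median of 47 bp and an interquartile range of 23 to 94.5 bp. They were counted for overlapping these peaks, which favours near centres in advance. Of all common sites 74 held an FXR peak of WT with GW4064 and with vehicle, 87 with GW4064 alone and 9 with vehicle alone. The site with the earliest FXR entry outside the shared regions was 5325 bp upstream of Slc9a8 (a sodium-proton exchanger), at chr2:167416162-167416386, entry 11 with GW4064 and 14 with vehicle. The one near Cth (cystathionine gamma-lyase), at chr3:157926157-157926560, was in entry 20 of both. The one 136 bp upstream of Sox12, at chr2:152398074-152398291, was in entry 23 with GW4064 and 88 with vehicle. The site 474 bp upstream of Nr0b2 (SHP, a corepressor that FXR induces), at chr4:133552787-133553017, was in entry 2046 with GW4064 and 183 with vehicle. Of the 135 sites 20 also lay in a region gained with GW4064 in WT, where 292 of all 3097 common sites outside the shared regions did (9.43%). Whether these shares differ was not tested. Among the 20 were those in Osgin1, Slc5a1, Vps13d and Ldlrad4 and the one near Slc9a8. These sites were named after their values were seen.

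**Figure D4:**
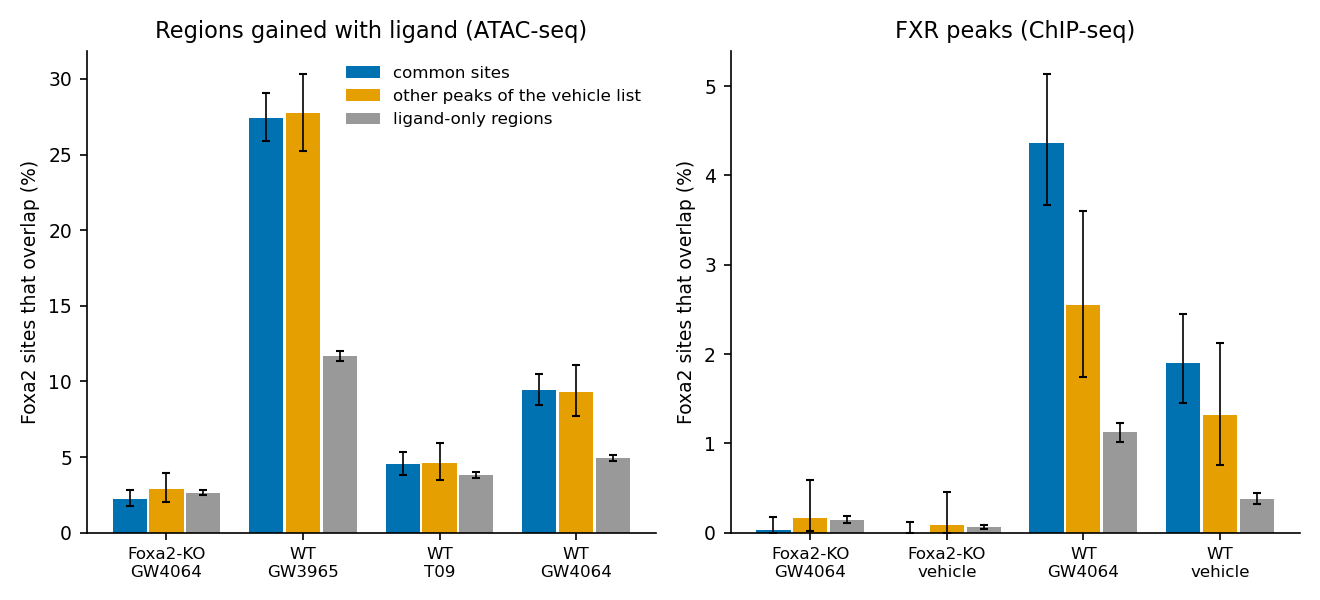
Percent of common sites, other peaks of the vehicle list and ligand-only regions that overlap a region gained with ligand (left, ATAC-seq) or an FXR peak (right), by genotype and treatment, with exact 95% intervals and without the regions shared by all antibodies. Common sites and other vehicle peaks are level at about 27% for GW3965 regions of WT, and FXR peaks with GW4064 meet 0.0323% of common sites in Foxa2-KO and 4.36% in WT.

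LXR and PPAR peaks met fewer than 1.2% of common sites in each list. The counts ran from 22 to 37 sites over the 6 LXR lists and from 21 to 33 over the 8 PPAR lists, and without the shared regions from 4 to 13 and from 5 to 8. With T09, 30 common sites held an LXR peak in Foxa2-KO, 11 of them outside the shared regions, and 30 in WT, 10 of them outside. The LXR lists of the genotypes were made differently, per the labels at a false discovery rate of 0.1 from 3 samples a group in Foxa2-KO and of 0.05 from 1 sample in WT. With T09 they hold 2503 peaks in Foxa2-KO and 8095 in WT, so no comparison of genotypes is drawn from them. Over all these lists, shared regions included, common sites stood at 0.672 to 1.18% and other vehicle peaks at 0.0818 to 0.982%. Without the shared regions common sites stood at 0.129 to 0.420% and other vehicle peaks at 0 to 0.576%. In some lists other vehicle peaks then had the higher share, as in PPAR of Foxa2-KO with T09 (0.576% against 0.226%).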

How the data were processed

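Peak lists were taken as deposited. The submitters' processing notes name BWA and mm10, and per the labels peaks were called with PeakSeq against input, for ATAC-seq ligand against vehicle. Versions are not given in the sources used here. The fold, a ratio of ligand over vehicle, is the authors' own in the 3 ATAC lists that hold it. Other lists were used for positions and order of entries alone. Columns of other samples left unused numbered 0.

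Starts in the lists count from 0 and are given 1-based. Overlap means at least 1 shared base. A gene has a site where the site's centre lies in it or within 10 kb, in RefSeq's table for GRCm38.p6, in which all 335 list entries matched, genes on more than 1 list counted each time, 1 of them (C5, listed as Hc) through an older symbol. Motifs were counted in RefSeq promoter windows reduced to those that do not overlap each other. The overlap step was checked on simulated intervals. Intervals are exact (Clopper-Pearson, 95%). No test was run, since each group is 1 list. Alternatives changed the overlap, the lists required, the window, the motif and the shared regions.

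A title with a ligand's name and -Veh was taken for that experiment's vehicle group. The series text speaks of injection, the labels of gavage. RNA-seq was not used here. Some members of the gene lists count in the totals and are not reported here by name. The sites and lists were chosen with earlier results of these data known. Named genes are, per list, the first 4 by number of sites and then vehicle entry, the 5 genes with most sites and the genes at the first 10 sites outside shared regions. Other genes were named after their values were seen. Python 3.11.15, numpy 2.4.6, scipy 1.17.1 and matplotlib 3.10.9 were used.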

Additional observations from a re-analysis of the deposited data

How the results depend on the processing

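With the first 50% of the entries of each list it was 1787, against 3126 as reported, and 4075 when the GW4064 vehicle list was not required, 2868 when 50% of the vehicle peak had to be shared and 2315 with centres within 100 bp. With a window of 5 kb 63.8% of common sites had a gene near them and with 50 kb 83.7%, against 68.6%. With the first 50% of the GW3965 ATAC list 19.8% of common sites lay in a gained region, against 27.4%. For FXR peaks of WT with GW4064 the 5.15% became 3.74% with centres within 100 bp, 4.32% with the first 50% of the FXR list and 4.36% without the regions shared by all antibodies. A forkhead match was in 33.9% of windows with TGTTTAC alone and in 33.3% within 50 bases of the site centre, against 42.9%. Shorter lists, smaller windows and 1 motif spelling in place of 2 can by construction give lower values alone, and the larger window higher ones. Shared regions hold a peak of every antibody by definition, so leaving them out favours lower shares for FXR, LXR and PPAR. Of the 29 sites in shared regions 26 held an FXR peak. Of 22 settings 13 moved their value by less than its interval or 1.5 times. Counted within the site 41.9% of windows had a match and with overlapping windows included 45.5%, 2 settings chosen after seeing the data. No paired analysis was possible because each group is 1 list and no result comes from a test. Depth is unknown, the order of entries is unexplained, and sequence covered promoters alone, so motif shares say nothing of the distal sites.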
